A study of Mus musculus with 12 samples.

Results

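The interferon response genes described here were 39 genes that type I interferon or viral nucleic acid is known to induce or that carry its signal. How open their chromatin was came from ATAC-seq, a method that reads where the Tn5 transposase can cut, as the summed counts of all regions that overlapped a gene's span on mm10 or its 5 kb flanks. Of the 39 genes among 21633 in the gene table, 38 had a region and 37 held enough counts to be tested. Ifit3 had no region, and Ifi44 had a single region with too few counts. The 38 loci held 159 of the 117835 regions of the count table, of which 119 could be tested alone.

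The cells were sorted from brain tumours of mice whose genotype is given as Ink4a/ArfKO with PDGFB, a background that all 4 groups share. Monocyte-derived macrophages, which enter the tumour from blood, and microglia, the brain's resident macrophages, were each sorted into non-lipid-laden cells (MDM, MG) and lipid-laden cells (LL-MDM, LL-MG), and each of the 4 groups has 3 libraries. No treatment, time point, age or sorting marker is given in the sources used here, and the labels do not say whether cells of several mice were pooled. In the series design text, PDGFB is expressed in Nestin-positive progenitor cells, and lipid loading of macrophages is the property the library names and titles use to divide each lineage.

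Library names decided the groups. The titles and cell type labels of 8 of the 12 samples name another group than the library name, and those of 4 name the same one, so every result below rests on the library names. With groups set by the titles instead, 0 of the 37 loci were called in MG against MDM, with 0 at an unadjusted p under 0.05 (edgeR). The share of all loci called under the titles is not given here. The titles also number 3 mice, and under the library names these numbers are mixed up with lipid load. Total counts ran from 6341183 to 18938222 in MDM, from 1162969 to 7390521 in LL-MDM, from 2753453 to 6872724 in MG and from 2150072 to 2764146 in LL-MG. Microglial markers followed the library names, with 6 of 10 loci higher and 0 lower both in MG against MDM and in LL-MG against LL-MDM. Among them the regulator Sall1 was higher by 5.88 and by 3.03 on the log2 scale. Sall1 was also higher in LL-MDM than in MDM, by 3.30, and 4 of the 10 microglial loci were. The summed CPM of the 10 loci was 342.9 to 369.7 in MDM and 389.3 to 416.1 in LL-MDM. It was 409.3 to 657.8 in MG, overlapping LL-MDM, and 638.7 to 697.2 in LL-MG. For 8 monocyte-derived macrophage loci the sums were 647.1 to 717.2, 605.3 to 645.3, 357.0 to 438.5 and 397.5 to 445.5 CPM in the same order. The MG libraries differed most among themselves, with a chi-square per degree of freedom of 9.99 over 15427 loci between MG 1 and MG 2. The other MG pairs gave 3.78 and 4.00, near the 2.68 to 3.72 within MDM. It was 1.26 to 1.62 within LL-MDM and 1.29 to 1.445 within LL-MG. This measure was not adjusted for the total counts, which differed between the groups. MG 1 was the highest of the 3 MG libraries at 24 of the 37 interferon loci (64.9%, against 44.1% of all loci), and MG 2 was the lowest at 20 (54.1%, against 38.9%). As sorted cells were measured in bulk, fewer cells with an open site and less opening per cell cannot be told apart. As the labels conflict on which mouse a library came from, the p-values speak of the spread between these libraries, which may be technical.

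Type I interferons signal through a receptor made of Ifnar1 and Ifnar2 and the kinases Jak1 and Tyk2 to the factor complex ISGF3, which holds Stat2 and Irf9. This complex binds the interferon-stimulated response element (ISRE) in promoters of induced genes, whose products sense viral RNA, block viral entry and replication, and feed the response back through Irf7. Microglia and macrophages in tumours are known to carry interferon-response states, and in resting cells many of these genes already have an open promoter.

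The ISRE is a sequence that many of the members' promoters hold. Its core, GAAA and again GAAA with 2 bases of any kind between, searched on both strands, lay in the promoter window of 14 of the 30 members with an entry in the RefSeq promoter table (46.7%), against 1079 of 27025 genes (3.99%). The window runs from 250 bases before to 50 after the start on GRCm38.p6, the assembly of mm10. The GAS motif TTCNNNGAA, which reads the same on both strands, lay in 8 of 30 (26.7%, against 9.55% of all genes). These are matches of letters only. The 5 promoters below are shown because their regions were measured here and they differ in outcome: those of Bst2, Oas3 and Oas1a were lower in MG than in MDM, and those of Isg15 and Ifit1 did not pass that test. Each is the 250 bases before the start, 5′ to 3′ on the gene's strand, with every ISRE core of either strand in capitals. Overlapping cores run together in Isg15, Bst2 and Oas1a. They lie at chr4:156200819-156201068 (minus strand) for Isg15, chr19:34640639-34640888 (plus) for Ifit1, chr8:71537473-71537722 (minus) for Bst2, chr5:120777660-120777909 (minus) for Oas3 and chr5:120907526-120907775 (minus) for Oas1a.
Isg15: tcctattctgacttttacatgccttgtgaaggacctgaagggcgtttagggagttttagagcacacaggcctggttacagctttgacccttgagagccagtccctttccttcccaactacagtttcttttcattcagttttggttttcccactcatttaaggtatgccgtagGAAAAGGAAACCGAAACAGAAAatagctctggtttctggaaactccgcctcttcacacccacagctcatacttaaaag
Ifit1: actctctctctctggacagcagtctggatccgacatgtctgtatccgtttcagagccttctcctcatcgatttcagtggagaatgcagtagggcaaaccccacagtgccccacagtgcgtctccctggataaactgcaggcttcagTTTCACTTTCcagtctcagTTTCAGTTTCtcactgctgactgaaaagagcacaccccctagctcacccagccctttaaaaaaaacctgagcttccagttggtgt
Bst2: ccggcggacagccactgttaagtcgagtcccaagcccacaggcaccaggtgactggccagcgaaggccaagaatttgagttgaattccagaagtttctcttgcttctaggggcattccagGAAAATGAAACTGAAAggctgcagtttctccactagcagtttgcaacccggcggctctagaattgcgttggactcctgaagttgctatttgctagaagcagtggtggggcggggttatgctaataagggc
Oas3: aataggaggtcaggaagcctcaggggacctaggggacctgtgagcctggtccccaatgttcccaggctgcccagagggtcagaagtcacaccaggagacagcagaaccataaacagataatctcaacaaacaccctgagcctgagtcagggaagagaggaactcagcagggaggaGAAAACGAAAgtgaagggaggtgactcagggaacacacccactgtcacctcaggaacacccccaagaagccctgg
Oas1a: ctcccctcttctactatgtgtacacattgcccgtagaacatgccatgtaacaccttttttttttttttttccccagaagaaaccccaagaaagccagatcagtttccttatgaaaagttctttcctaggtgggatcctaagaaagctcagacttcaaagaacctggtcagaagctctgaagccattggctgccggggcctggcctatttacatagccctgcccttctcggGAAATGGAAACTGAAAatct

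Below, CPM is a count scaled by the library's total and TMM factor, in edgeR's usual unit (for a locus the total is over all tested loci, with a region near several genes counted for each, and for a region it is over all tested regions, so that region and locus CPM do not add up), and a difference is a log2 fold change ± standard error from 1 edgeR quasi-likelihood model over the 12 libraries. A locus is called where the Benjamini-Hochberg adjusted p, taken over all 15554 tested loci, is under 0.05. Per kb of region, the mean level of the tested loci in MDM ran from 13.7 CPM per kb at Oas1a to 67.8 at Trim25. Neighbouring genes share regions, and for 15 members at least 50% of the counts also belong to another gene. Parp9 and Dtx3l share 4 regions and Oas2 and Oas3 share 4, so these pairs are not separate evidence.

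Interferon loci were less open in microglia than in monocyte-derived macrophages when neither carried lipid. In MG against MDM, 22 of the 37 loci were lower and 1 was higher, where 21.2% of all loci were called lower and 19.8% higher (41.0% either way). The median difference was -0.33 over the members and -0.00 over all loci. The summed CPM of the 37 loci was 1653 to 1708 in MDM and 1239 to 1394 in MG, with shared regions counted for each gene. At 23 of the 37 loci (62.2%) all 3 MG libraries lay below all 3 MDM libraries, against 24.8% of all loci.

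**Figure D1:**
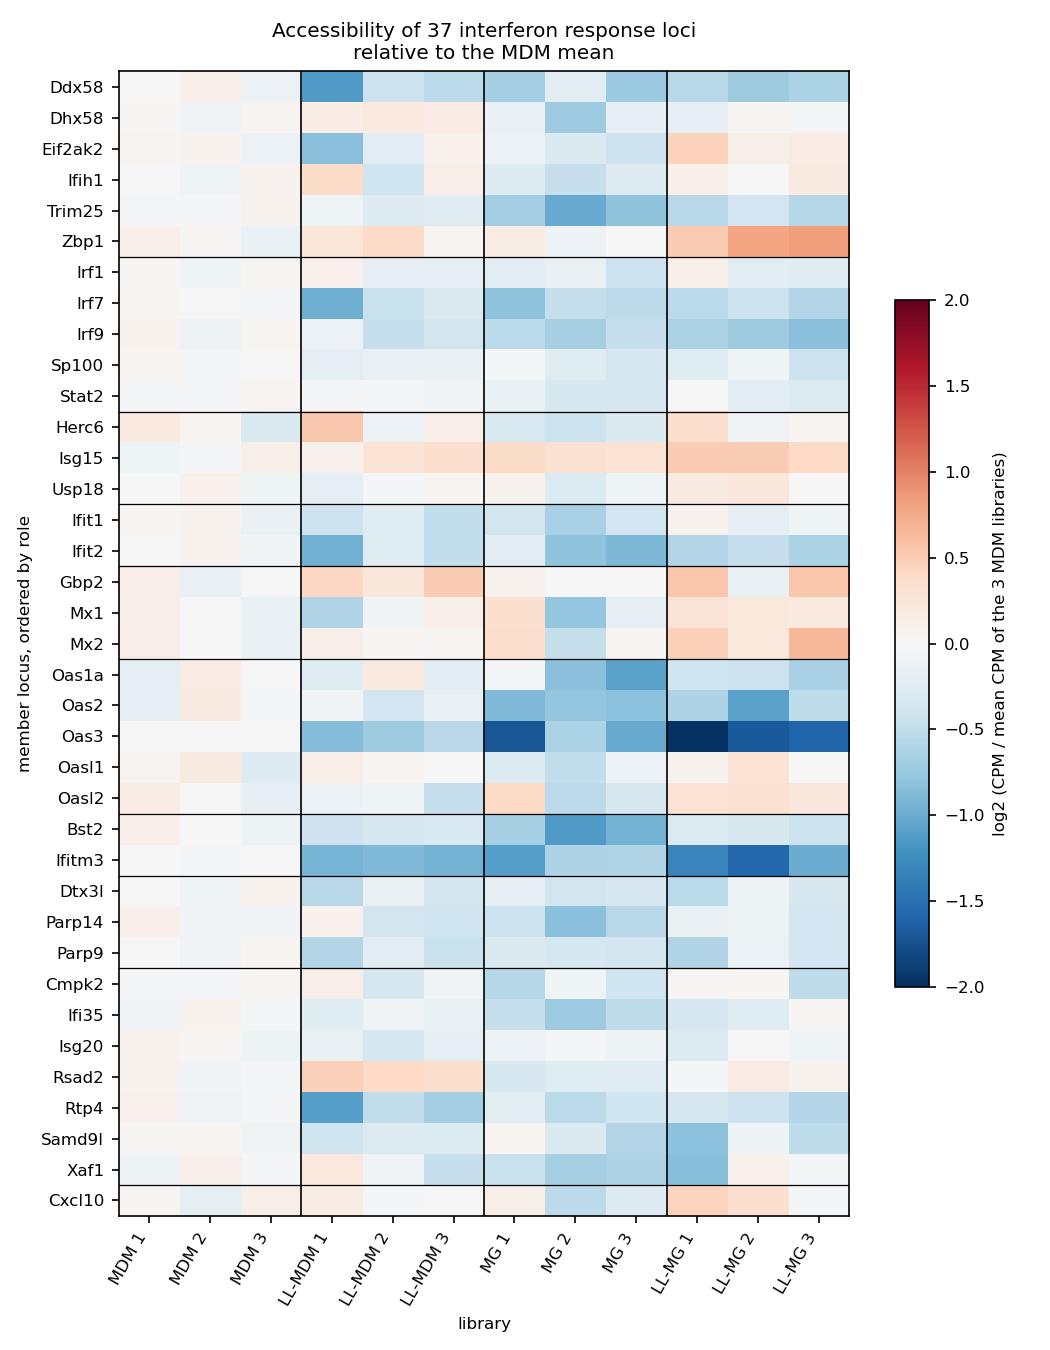
Log2 ratio of each library's CPM to the mean of the 3 MDM libraries (color) at the 37 tested interferon loci (rows, grouped by role) in the 12 libraries (columns). Most rows are blue, below the MDM mean, in the MG columns, where 22 loci were called lower, while Isg15 is red in all MG and LL-MG columns.

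Among the sensors of viral nucleic acid, 4 of 6 were lower in MG. Trim25, the ubiquitin ligase that activates the RNA sensor RIG-I, stood at 168, 166 and 179 CPM in the MDM libraries and at 105, 84.9 and 97.5 CPM in the MG libraries. The groups did not overlap, and the difference was -0.85 ± 0.08 (adjusted p = 6.58e-08, edgeR). Ddx58, which encodes RIG-I itself, was at 30.6, 32.7 and 28.3 CPM in MDM and at 19.0, 26.5 and 18.3 CPM in MG (-0.49 ± 0.15). Its relatives Ifih1 (-0.33 ± 0.13) and Dhx58 (-0.35 ± 0.11) were lower as well. Ifih1 lost its call when any 1 of 9 libraries was left out, and Dhx58 without MDM 1, MDM 3 or MG 2, at -0.15 without MG 2. The Z-nucleic acid sensor Zbp1 differed by -0.01 ± 0.13 and the RNA-dependent kinase gene Eif2ak2 by -0.29 ± 0.19, neither past the test.

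Of the 5 transcription factor loci, 4 were lower in MG. Irf7, which amplifies the interferon response, was at 75.0, 71.9 and 71.2 CPM in MDM and at 41.8, 52.1 and 50.7 CPM in MG, without overlap (-0.57 ± 0.10, adjusted p = 0.000141, edgeR). All its counts also lie within 5 kb of Cdhr5 or Phrf1. Irf9, the DNA-binding subunit of ISGF3, was at 56.0, 50.03 and 54.8 CPM in MDM and at 37.1, 33.9 and 38.9 CPM in MG (-0.55 ± 0.10), counts it shares with Rnf31. Stat2, its partner in ISGF3, was at 57.3, 56.6 and 60.01 CPM in MDM against 52.7, 46.5 and 46.0 CPM in MG (-0.27 ± 0.09). Irf1, which interferon gamma induces, was at 91.6, 85.3 and 93.8 CPM against 77.5, 81.2 and 67.5 CPM (-0.25 ± 0.09), the smallest of the 4 differences. The nuclear body gene Sp100 did not pass (-0.21 ± 0.09).

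Both membrane restriction factor loci, 3 of 5 oligoadenylate synthetase loci and both tested Ifit loci were lower in MG. Bst2, which encodes tetherin, a membrane protein that holds budding virions, was at 51.5, 48.0 and 44.9 CPM in MDM and at 30.3, 21.9 and 25.0 CPM in MG (-0.95 ± 0.11, adjusted p = 6.3e-07, edgeR). Ifitm3, which blocks virus entry from endosomes, was at 39.6, 38.6 and 39.6 CPM against 18.4, 25.7 and 25.9 CPM (-0.72 ± 0.13). Both loci were without overlap between the groups. The oligoadenylate synthetases, which make the activator of RNase L, were lower at Oas3 (-0.98 ± 0.15), Oas2 (-0.82 ± 0.18) and Oas1a (-0.66 ± 0.22), and the related Oasl1 and Oasl2 did not pass. Oas3 was even in MDM, at 70.0, 70.6 and 70.4 CPM, and spread in MG, at 21.4, 45.2 and 34.9 CPM, with MG 1 lowest. Of the Ifit genes, whose products bind viral RNA, Ifit2 (-0.66 ± 0.15) and Ifit1 (-0.49 ± 0.19) were lower.

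The ADP-ribosylation genes Parp14 (-0.63 ± 0.12), Parp9 (-0.33 ± 0.10) and its ubiquitin ligase partner Dtx3l (-0.30 ± 0.10) were all lower in MG. Parp14 was at 51.0, 45.3 and 45.7 CPM in MDM and 35.0, 26.4 and 32.2 CPM in MG. Ifi35 was at 43.2, 47.0 and 44.0 CPM against 32.6, 26.9 and 31.5 CPM (-0.58 ± 0.11), with all its counts shared with neighbours. Xaf1 (-0.59 ± 0.19), Rtp4 (-0.40 ± 0.11) and Rsad2, which encodes viperin (-0.26 ± 0.09), were the other lower loci. Neither Gbp2, which encodes an antiviral GTPase, nor Mx1, Mx2 or the chemokine gene Cxcl10 passed the test. Mx1 and Mx2 are listed as transcribed pseudogenes in the RefSeq annotation used here.

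Isg15, which encodes a ubiquitin-like modifier, was the 1 locus called higher in MG, at 88.1, 90.6 and 101 CPM in MDM and 121, 115 and 113 CPM in MG (0.32 ± 0.08). The call came from its flanks. A region at chr4:156202658-156202806, centred at -1914 bp from the start and within 5 kb of Perm1, was at 1.83, 2.119 and 1.71 CPM in MDM and 15.2, 15.8 and 9.51 CPM in MG (2.79 ± 0.25). By its name this region was found in MG and LL-MG alone. The region over the ISRE-bearing promoter printed above was at 9.06, 8.80 and 8.89 CPM in MDM and 7.78, 6.17 and 8.78 CPM in MG and did not pass (-0.25 ± 0.24). The name of this promoter region lists MDM alone, so its difference is not independent of how it was found. It is also the only region inside the gene's span. The Isg15 difference over the span alone (-0.39) therefore comes from the same region and is no second support. The locus value does not describe the promoter. Of the ISG15 protease gene Usp18 and the ligase gene Herc6, neither passed (-0.13 ± 0.10 and -0.37 ± 0.16).

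Of the 23 calls in MG against MDM, 13 held without any 1 of the 12 libraries: Isg15, Ifit2, Ifitm3, Ifi35, Irf7, Irf9, Oas2, Oas3, Bst2, Trim25, Parp9, Parp14 and Rtp4. Stat2 lost its call without MG 2 or MG 3 (lowest size -0.24) and Irf1 without MDM 1, MDM 3, MG 3, LL-MDM 3 or LL-MG 2 (-0.18 at the least). Without MG 3 the count was 13 lower and 1 higher. Of the 4 tested Irf1 regions, the one over the start did not pass, and the others, led by a flank region at chr11:53783093-53783626 (-1.68 ± 0.24), were lower. By their names this flank region was found in MDM and LL-MDM alone, and the other lower regions in MDM alone. Over the gene's span alone Irf1 differed by 0.03.

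**Figure D2:**
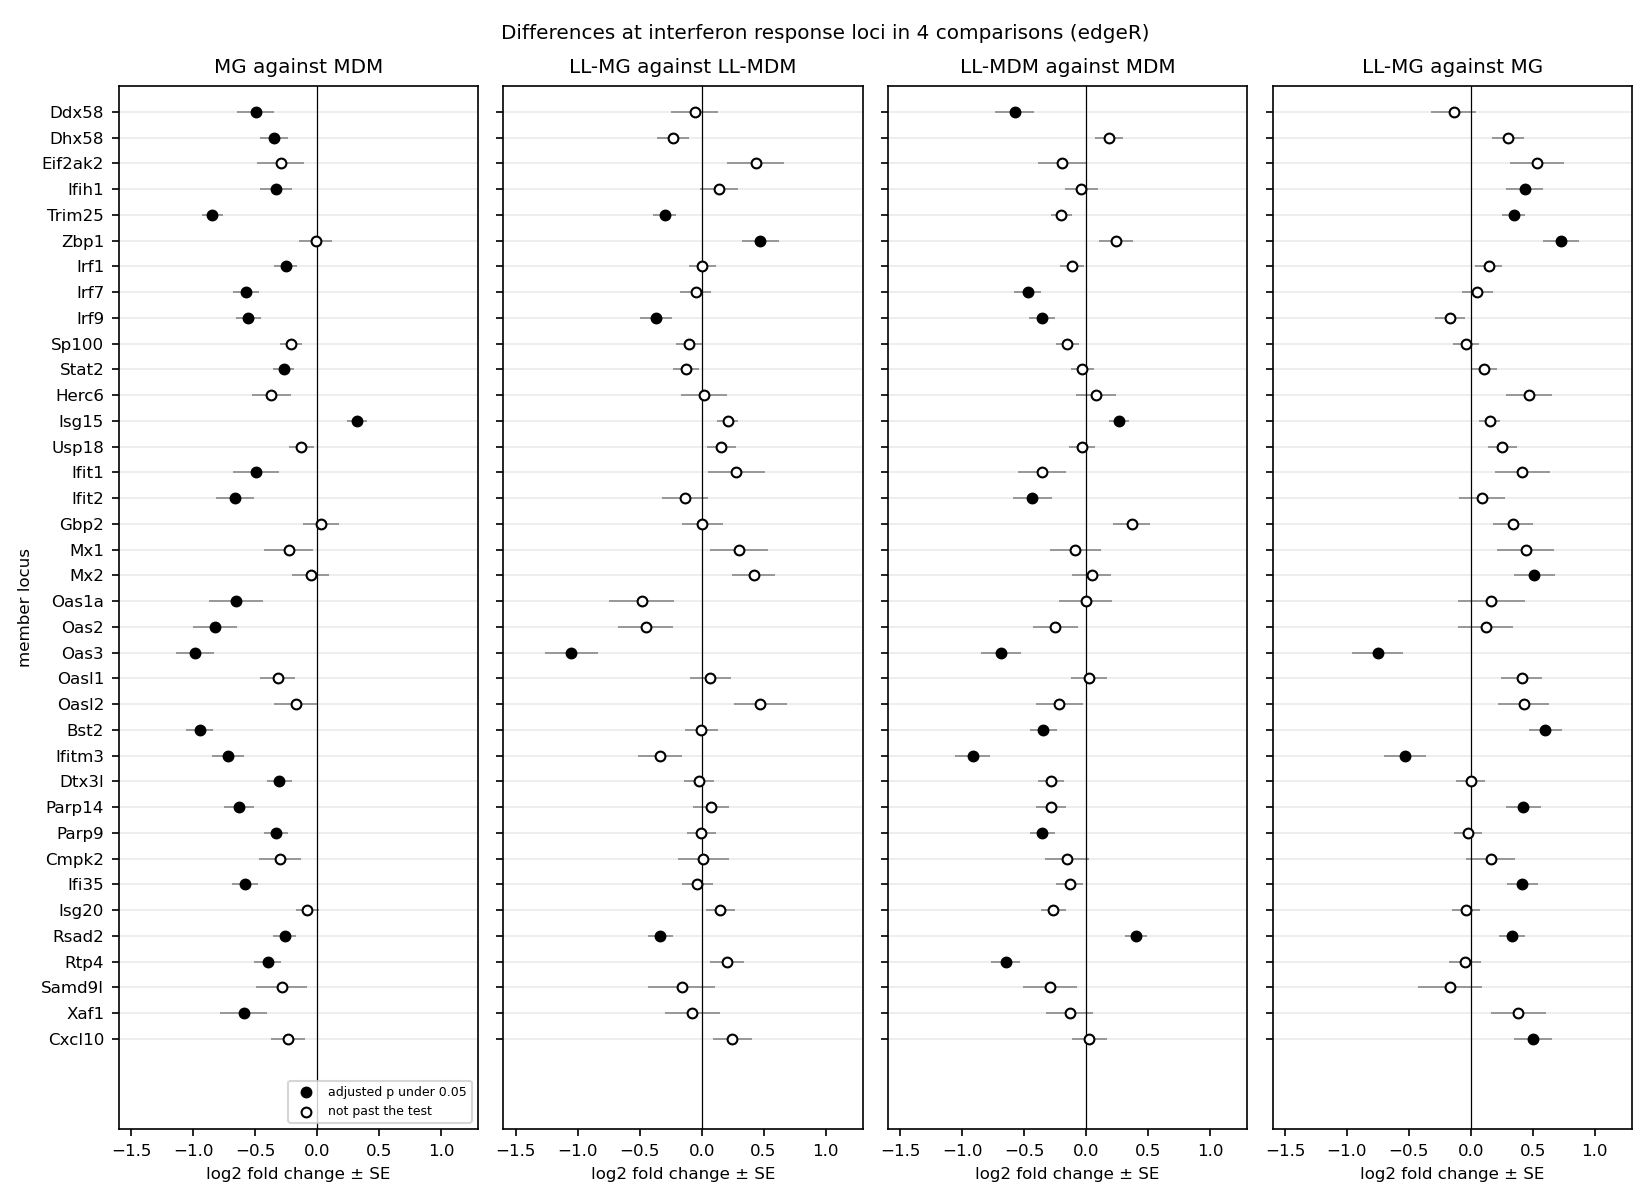
Log2 fold change ± standard error (x axis) of the 37 tested loci (y axis) in 4 comparisons, from edgeR, with filled points past the adjusted p of 0.05. In MG against MDM 22 filled points lie left of 0 and 1 right of it, and in LL-MG against MG 9 lie right and 2 left.

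Against regions of the same kind over all genes, the members' promoter regions were more often lower in MG, while their other regions were lower about as often. For members with a promoter entry, 27 tested regions at 25 genes overlapped a promoter window, and 8 of these were lower in MG and 0 higher. Over all promoter windows of the table, 6.87% of 10518 tested regions were lower and 33.1% higher. The 8 were at Bst2 (-0.58 ± 0.13), Oas3 (-0.72 ± 0.22), Oas1a (-0.81 ± 0.29), Ifit2 (-0.61 ± 0.18), Ifitm3 (-1.11 ± 0.32), Irf9 (-0.37 ± 0.12), Xaf1 (-0.57 ± 0.19) and Ifi35 (-0.42 ± 0.16). An ISRE core lay in the windows of 4 of them, and the Ifitm3 region was found in MDM alone. Of the 14 tested promoter regions with an ISRE core, 4 were lower and 0 higher (median -0.27), and of the 13 without, 4 were lower and 0 higher (median -0.15), so the motif did not divide the called from the uncalled. At the 58 regions of the same genes outside promoter windows, 18 were lower and 6 higher, where 27.7% of 67219 such regions were lower and 25.8% higher. There the lower share was near that of all such regions, and fewer were higher. Over all 119 member regions, 33 were lower and 12 higher, against 24.9% and 26.8% of all regions (51.7% either way), so the lower share was again near that of all regions.

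Single regions carried larger differences than whole loci. At Trim25 neither region over the promoter window passed, and a region at chr11:89020828-89021278, 21650 bp downstream of the start and just past the gene's end, was at 27.0, 30.8 and 31.8 CPM in MDM and 7.78, 5.66 and 6.83 CPM in MG (-2.17 ± 0.19, adjusted p = 3.28e-11, edgeR). At Bst2 a region inside the gene, at chr8:71535742-71535981, was at 8.55, 8.86 and 10.6 CPM against 1.48, 1.20 and 1.46 CPM (-2.75 ± 0.35), beside the promoter region at 45.9, 42.1 and 38.3 CPM against 31.5, 26.6 and 27.6 CPM. A flank region of Rtp4 at chr16:23515991-23516102, also within 5 kb of Masp1, was higher in MG, at 3.71, 1.89 and 3.66 CPM against 0.15, 0.11 and 0.17 CPM (4.25 ± 0.56). By their names, the inner Bst2 region was found in MDM alone and the Rtp4 region in MG and LL-MG alone. Each entered the table through groups where it was high, so its difference is no independent evidence.

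**Figure D3:**
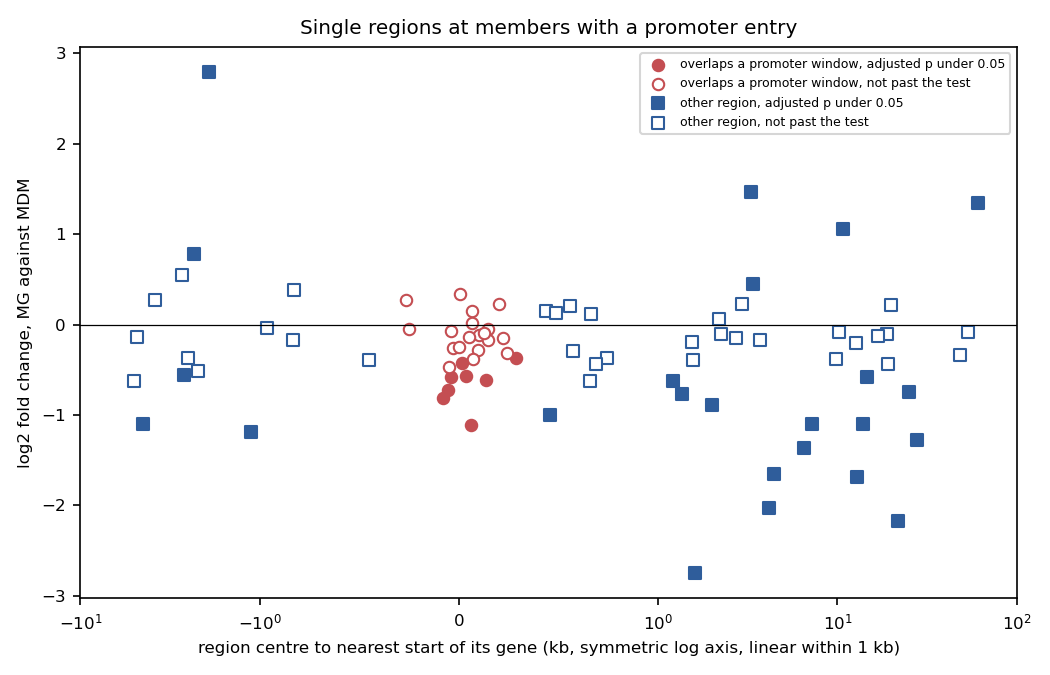
Log2 fold change of MG against MDM (y axis) for single regions of members with a promoter entry, by the distance of the region's centre from its gene's nearest start (x axis, kb, linear within 1 kb and logarithmic beyond). Circles are the 27 regions at promoter windows, of which the 8 filled ones are lower in MG, and squares are the 58 other regions, with 18 filled below 0 and 6 above.

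Once both lineages carried lipid, few of these loci were called between the lineages. In LL-MG against LL-MDM, 4 of 37 loci were lower and 1 was higher, where 8.31% of all loci were lower and 12.0% higher, and the members' median was -0.00 (all loci -0.01). The summed CPM was 1502 to 1510 in LL-MDM and 1447 to 1525 in LL-MG, so that these groups overlapped. All LL-MG libraries lay above all LL-MDM libraries at 7 loci (18.9%) and below them at 8 (21.6%). Of all loci, 22.1% lay above and 19.5% below in this way. Oas3 kept a large difference, at 38.6, 42.8 and 47.8 CPM in LL-MDM and 17.9, 21.9 and 23.1 CPM in LL-MG (-1.05 ± 0.21, adjusted p = 0.00222, edgeR), and the region over its promoter shown above was lower too (-1.15 ± 0.29). That was the 1 of 27 promoter regions called, with 0 higher (edgeR, 1 at an unadjusted p under 0.05), where 4.92% of all promoter regions were lower and 7.03% higher. It was the only 1 of the 5 calls to hold without any 1 library. Irf9 was at 49.2, 39.1 and 41.6 CPM against 34.5, 32.9 and 30.1 CPM (-0.37 ± 0.13), Trim25 at 162, 144 and 145 CPM against 117, 131 and 115 CPM (-0.30 ± 0.09) and Rsad2 at 60.7, 57.6 and 55.9 CPM against 42.6, 48.9 and 45.9 CPM (-0.33 ± 0.10). Zbp1 was higher in LL-MG, at 33.6, 40.7 and 42.1 CPM against 27.9, 30.6 and 24.4 CPM (0.47 ± 0.15).

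These 4 smaller calls depended on single libraries. The count was 1 without LL-MDM 1 or LL-MG 3, 2 without LL-MDM 3 or LL-MG 1 and 3 without LL-MG 2. The other factors did not pass: Irf7 differed by -0.05 ± 0.13, Irf1 by 0.01 ± 0.11 and Stat2 by -0.13 ± 0.10. Among single regions, 9 of 119 were higher and 7 lower (10.3% and 11.2% of all regions). The Isg15 flank region named above was higher (1.43 ± 0.28), a flank region of Rsad2 at chr12:26439347-26439753 was lower (-1.52 ± 0.28), the Irf1 flank region was lower (-1.29 ± 0.32), and a second Masp1-side region of Rtp4, at chr16:23518956-23519135, was higher (2.14 ± 0.49). The Isg15 and Rtp4 regions were found in MG and LL-MG alone, and the Irf1 region in MDM and LL-MDM alone.

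**Figure D4:**
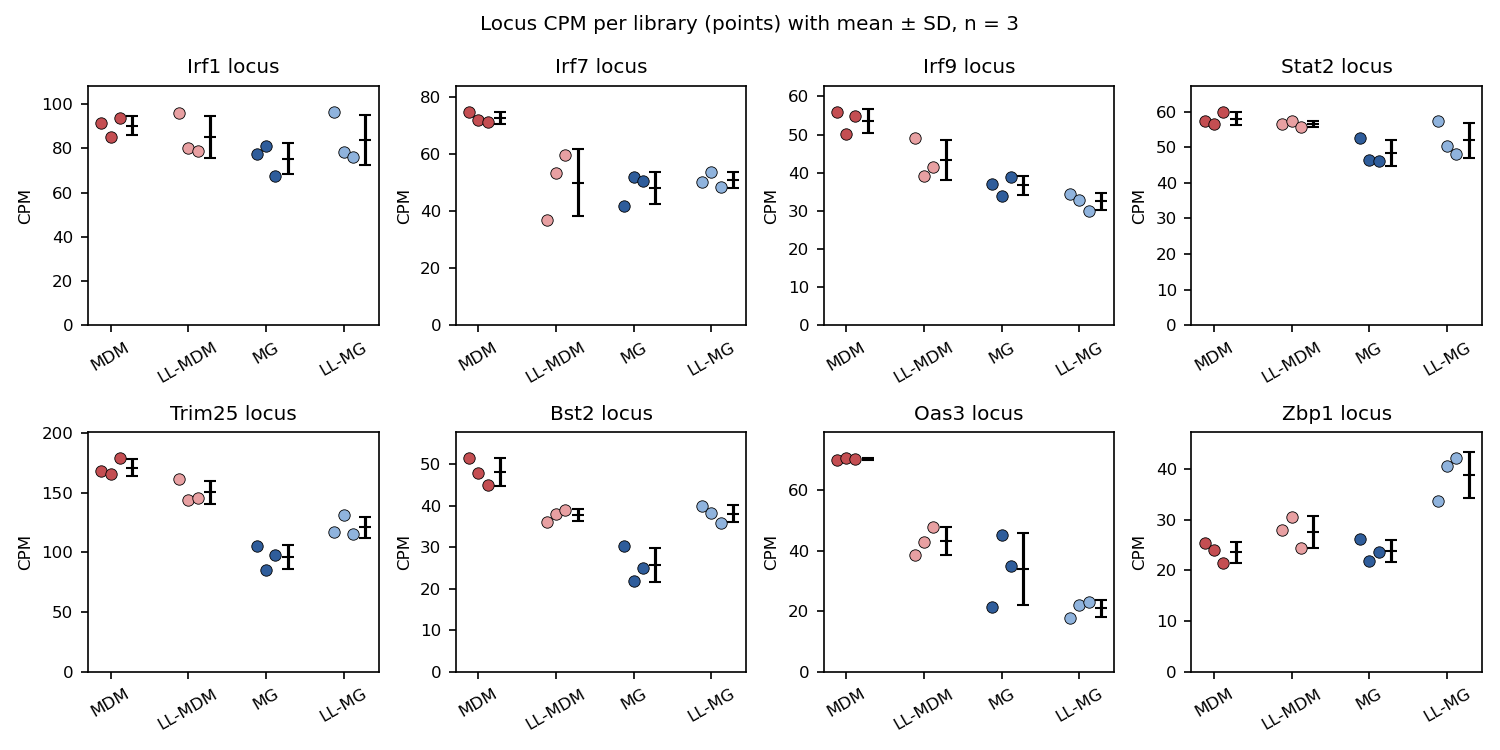
CPM per library (points) with mean ± SD of 3 libraries for 8 interferon loci in the 4 groups. Irf7 and Oas3 are highest in the 3 MDM libraries, Trim25 and Bst2 are lowest in the 3 MG libraries, and Zbp1 is highest in the 3 LL-MG libraries.

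Lipid-laden monocyte-derived macrophages had less open interferon loci than those without lipid at 9 of 37 loci and more open ones at 2. Of all loci, 12.2% were lower and 11.7% higher in this comparison, and the median was -0.15 over the members and -0.00 over all loci. The summed CPM was 1502 to 1510 in LL-MDM against 1653 to 1708 in MDM. At 16 of 37 loci (43.2%) all LL-MDM libraries lay below all MDM libraries, against 23.1% of all loci. This comparison and the one of MG with MDM share the 3 MDM libraries.

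Ifitm3 had the largest called difference, at 39.6, 38.6 and 39.6 CPM in MDM and 20.5, 21.2 and 20.3 CPM in LL-MDM (-0.91 ± 0.14, adjusted p = 0.000104, edgeR). Its promoter region (-0.95 ± 0.33) and a region at chr7:141006472-141006738, 4139 bp downstream of the start (-2.01 ± 0.33), were both lower. By their names both regions were found in MDM alone. Rtp4 was at 58.2, 52.4 and 53.7 CPM against 25.4, 38.7 and 34.1 CPM (-0.65 ± 0.12), and its region inside the span at chr16:23609644-23610183 was lower by itself (-0.95 ± 0.19). Irf7 was at 75.0, 71.9 and 71.2 CPM against 36.9, 53.4 and 59.7 CPM (-0.47 ± 0.11), with the shallowest library, LL-MDM 1, lowest. Of its 4 tested regions, 1 was called, a region inside the gene at chr7:141264780-141265356 (30.7 against 16.2 CPM on average, -0.80 ± 0.17).

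Oas3 was at 70.0, 70.6 and 70.4 CPM in MDM and 38.6, 42.8 and 47.8 CPM in LL-MDM (-0.69 ± 0.16), and Ddx58 was at 30.6, 32.7 and 28.3 CPM against 13.9, 22.6 and 20.9 CPM (-0.58 ± 0.16). At both, every LL-MDM library lay below every MDM library. Irf9 was at 56.0, 50.03 and 54.8 CPM against 49.2, 39.1 and 41.6 CPM (-0.36 ± 0.10), and Parp9 at 73.2, 69.6 and 76.2 CPM against 48.4, 62.7 and 53.7 CPM (-0.35 ± 0.10), again without overlap. Ifit2 (-0.44 ± 0.16) and Bst2 (-0.35 ± 0.11) were the other lower loci. The flank region of Trim25 was also lower (-1.26 ± 0.18), although the Trim25 locus was not (-0.20 ± 0.08). This flank region was found in every group but LL-MDM, so its fall is not independent of how it was found. Rsad2 went against the rest, at 46.0, 41.8 and 43.0 CPM in MDM and 60.7, 57.6 and 55.9 CPM in LL-MDM (0.40 ± 0.09). Viperin, its product, is known to sit on lipid droplets. Isg15 was the other higher locus (0.26 ± 0.08), by its flanks. Its span alone, which holds only the promoter region found in MDM alone, gave -0.51. Of the factors, Stat2 was at 57.3, 56.6 and 60.01 CPM in MDM and 56.6, 57.3 and 55.6 CPM in LL-MDM (-0.03 ± 0.09), and Irf1 was at 91.6, 85.3 and 93.8 CPM against 96.0, 80.3 and 78.7 CPM (-0.12 ± 0.10). Both overlapped between the groups and did not pass.

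Ifitm3, Irf7, Rsad2 and Rtp4 held their calls without any 1 library. The count was 7 without MDM 1 or MDM 2 and 6 without LL-MDM 3, and with the mouse number of the titles as a replicate block it was 2. Oas3 lost its call without LL-MDM 2 (lowest size -0.64 over the libraries left out), Ddx58 without MDM 2, Parp9 without LL-MDM 1 or LL-MDM 3, and Irf9 without MDM 1, LL-MDM 2 or LL-MDM 3. Isg15, Ifit2 and Bst2 each lost theirs without at least 4 of the 12 libraries. Among single regions 18 of 119 were lower and 7 higher (14.1% and 15.4% of all regions, 29.5% either way). At promoter windows 3 of 27 were lower and 1 higher, against 5.36% and 11.8% of all promoter regions. The higher promoter region was that of Gbp2 (0.65 ± 0.21), and Isg20 was lower at its promoter (-0.61 ± 0.18), though neither locus passed.

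In microglia, 9 of 37 interferon loci were more open in the lipid-laden cells (LL-MG against MG), 2 were less open and 26 did not pass, where 10.3% of all loci were higher and 7.98% lower, with a median of 0.25 over the members and 0.03 over all loci. The summed CPM was 1447 to 1525 in LL-MG against 1239 to 1394 in MG. At 12 loci (32.4%) all LL-MG libraries lay above all MG libraries, against 17.6% of all loci. This comparison and the one of MG with MDM share the 3 MG libraries, which differed most among themselves.

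Zbp1 had the largest called rise, from 26.2, 21.8 and 23.5 CPM in MG to 33.6, 40.7 and 42.1 CPM in LL-MG (0.73 ± 0.14, adjusted p = 0.00467, edgeR), and of its 2 tested regions the one at chr2:173218518-173219309 was called (0.55 ± 0.16). Bst2 rose from 30.3, 21.9 and 25.0 CPM to 40.0, 38.4 and 35.9 CPM (0.60 ± 0.13). In both, the groups did not overlap. Trim25 was at 105, 84.9 and 97.5 CPM in MG and 117, 131 and 115 CPM in LL-MG (0.34 ± 0.09), and Ifi35 at 32.6, 26.9 and 31.5 CPM against 35.3, 37.9 and 45.6 CPM (0.41 ± 0.13). Rsad2 was at 35.0, 36.8 and 36.995 CPM against 42.6, 48.9 and 45.9 CPM (0.33 ± 0.10). All 3 were without overlap. The other higher loci were Mx2 (0.51 ± 0.17), Cxcl10 (0.50 ± 0.15), Ifih1 (0.43 ± 0.15) and Parp14 (0.42 ± 0.14). Mx2 overlapped between the groups, lost its call when any 1 of 10 libraries was left out and stood at 0.29 without MG 2. Cxcl10, whose product attracts T cells, overlapped as well, at 52.4, 33.4 and 40.4 CPM in MG and 65.5, 61.2 and 47.7 CPM in LL-MG.

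Oas3 fell by 0.75 on the log2 scale (SE 0.21) and Ifitm3 by 0.53 (SE 0.17), in both with overlap between the groups. Oas3 lost its call without MG 2, MG 3 or any 1 LL-MG library and stood at -0.47 without MG 2. Of the 3 tested Oas3 regions, 1 was called, inside the gene at chr5:120775349-120775993 (9.64, 37.9 and 21.5 CPM in MG, 4.98, 7.52 and 7.98 CPM in LL-MG), and over regions named in all 4 groups the Oas3 difference was 0.12. None of the 5 transcription factor loci passed. In LL-MG, Irf7 was at 50.2, 53.9 and 48.4 CPM (0.05 ± 0.12 against MG) and Irf9 at 34.5, 32.9 and 30.1 CPM (-0.17 ± 0.12). Stat2 was at 57.4, 50.3 and 48.0 CPM (0.11 ± 0.10) and Irf1 at 96.6, 78.1 and 76.0 CPM (0.14 ± 0.11), each overlapping with MG. At promoter windows 0 of 27 regions were higher and 1 was lower, that of Isg20 (-0.61 ± 0.20), where 1.37% of all promoter regions were higher and 14.9% lower. Over all 119 member regions, 4 were higher and 3 lower (4.21% and 8.01% of all regions). A low-count region inside Sp100 at chr1:85698289-85698445 was lower (-2.90 ± 0.85), and a second Trim25 flank region, at chr11:89024137-89024693, was higher (0.44 ± 0.14). The Sp100 region was found in MDM and MG alone, and the called Oas3 region in every group but LL-MG. Both entered the table through MG and not LL-MG, so their falls are not independent of how they were found.

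The calls in LL-MG against MG rested on few libraries. Zbp1 and Bst2 held without any 1 library. The count of 11 was 2 without MG 2 or LL-MG 2, 3 without MG 3, 4 without LL-MG 1, 5 without LL-MG 3 and 7 without LL-MDM 3, and it was 16 without MG 1. Without LL-MDM 1, MG 2 and MG 3 together, which leaves MG 1 as the only MG library, assumed to vary like the others, 0 loci were called (edgeR, 2 at an unadjusted p under 0.05), and Zbp1 and Bst2 differed by 0.57 and 0.32. With the mouse number of the titles as a replicate block, 0 loci were called (10 at an unadjusted p under 0.05).

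The lipid-load difference itself differed between the lineages at 5 loci, all in the same direction. This comparison shares the 3 MG libraries with MG against MDM and with LL-MG against MG, so the results are not separate evidence. Bst2, Trim25, Parp14 and Ifi35 were called in each of them. The interaction test, which takes LL-MG minus MG less LL-MDM minus MDM, called 5 of 37 loci positive and 0 negative (edgeR, with 14 and 0 at an unadjusted p under 0.05), where 5.94% of all loci were positive and 2.78% negative (8.72% either way). The median was 0.39 over the members and -0.00 over all loci. Bst2 gave 0.95 ± 0.17 (adjusted p = 0.00181, edgeR): it was lower in LL-MDM than in MDM and higher in LL-MG than in MG. Trim25 gave 0.55 ± 0.13, Parp14 0.71 ± 0.19, Rtp4 0.60 ± 0.18 and Ifi35 0.55 ± 0.17. Irf7 did not pass (0.52 ± 0.17, adjusted p = 0.0514, edgeR), and neither did Stat2 (0.14 ± 0.14), Irf9 (0.19 ± 0.16) or Irf1 (0.26 ± 0.14).

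Of the 5, Bst2 held without any 1 library, Trim25 was lost only without LL-MG 2 (0.45), and the other 3 were lost without at least 5 libraries. The count ran from 1 without LL-MG 2 to 12 without MG 1. Of the 119 member regions, 5 were positive and 2 negative (4.56% and 6.33% of all regions). At Bst2 and Trim25 the called regions lay outside the promoters. The Bst2 region was found in MDM alone and the Trim25 region in every group but LL-MDM, so neither is independent evidence. The inner Bst2 region was at 9.33 CPM on average in MDM, 4.94 in LL-MDM, 1.38 in MG and 3.51 in LL-MG, an interaction of 2.51 ± 0.57, and the Trim25 flank region was at 29.9, 13.2, 6.76 and 8.81 CPM in the same order (1.67 ± 0.31). None of the 27 promoter regions was called by edgeR or DESeq2, with 3 positive and 1 negative at an unadjusted p under 0.05 in edgeR, where 1.02% of all promoter regions were called positive and 6.59% negative.

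**Figure D5:**
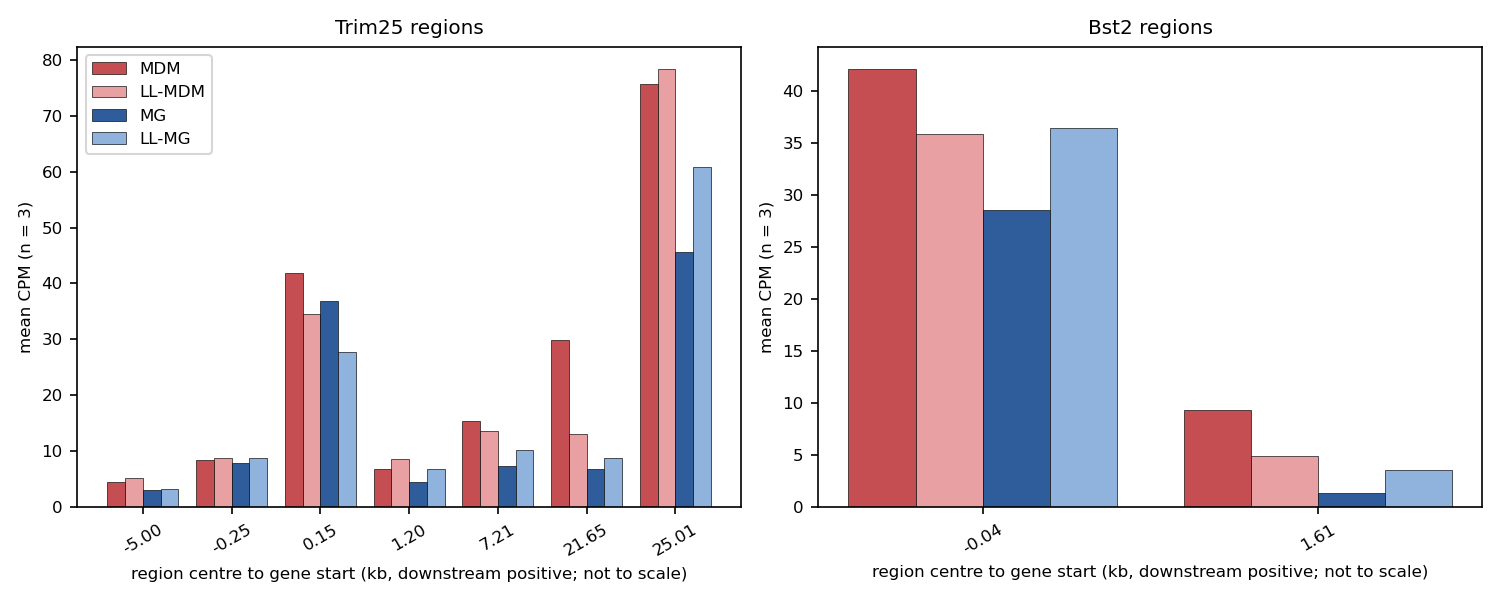
Mean CPM of 3 libraries (bars, from 0) in each tested region of Trim25 and Bst2 in the 4 groups, ordered by the distance of the region's centre from the gene's start (kb, not to scale). The called flank region of Trim25, centred 21650 bp from the start, falls from 29.9 CPM in MDM to 6.76 CPM in MG, and the inner Bst2 region is lowest in MG at 1.38 CPM.

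The remaining tested members were called in no comparison. These 11 were Cmpk2, Eif2ak2, Gbp2, Herc6, Isg20, Mx1, Oasl1, Oasl2, Samd9l, Sp100 and Usp18. Their levels ran from low, as at Samd9l with 5.53 to 10.2 CPM over the libraries, to moderate, as at Isg20 with 35.8 to 47.8 CPM, and that they did not pass does not show that they did not differ.

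Genes of the same pathway that are no members were tested in the same model, and 7 of 25 ligand, receptor, kinase and factor loci were called in MG against MDM. Of these, 6 were lower and 1 higher, a share no larger than the 41.0% of all loci called in that comparison, with Ifnar2, the signalling chain of the receptor, at 240.1 ± 20.01 CPM (SD, n = 3) in MDM and 136 ± 31.0 CPM in MG (-0.83 ± 0.11), and the kinase gene Tyk2 at -0.42 ± 0.10. Ifnar1 did not pass in any comparison (-0.03 ± 0.09 in MG against MDM), and Jak1 was higher (0.32 ± 0.08). In LL-MG against MG 8 of the 25 were higher and 1 lower (10.3% and 7.98% of all loci), among them Ikbke (0.96 ± 0.17), Tyk2 (0.65 ± 0.11) and Il10rb (0.54 ± 0.11). In LL-MDM against MDM 1 was higher and 1 lower (11.7% and 12.2% of all loci), and in LL-MG against LL-MDM 2 and 1 (12.0% and 8.31%). The interaction called Tyk2 (0.79 ± 0.15) and Tlr9 (0.77 ± 0.21) positive, where 5.94% of all loci were.

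Of 32 tested loci of other interferon-induced genes, 15 were lower and 1 higher in MG against MDM (median -0.41, where 21.2% of all loci were lower), with the DNA sensor family gene Ifi205 at -3.42 ± 0.35, Slfn5 at -1.17 ± 0.12, Ly6e at -0.64 ± 0.10 and Helz2 at -0.53 ± 0.10. In the other comparisons 1 was higher and 4 lower (LL-MG against LL-MDM), 3 and 6 (LL-MDM against MDM) and 5 and 2 (LL-MG against MG), and the interaction called 3 positive and 0 negative, with Slfn5 at 1.13 ± 0.19. Of all loci, 12.0%, 11.7% and 10.3% were higher and 8.31%, 12.2% and 7.98% lower in the same order. In the interaction 5.94% of all loci were positive and 2.78% negative. Of 10 tested interferon-inducible GTPase loci, 3 were lower and 0 higher in MG against MDM (Gbp8 at -1.11 ± 0.20). Over all loci 21.2% were lower and 19.8% higher (41.0% either way). Igtp (0.66 ± 0.17) and Irgm2 (0.41) were the 2 higher in LL-MG against MG, with 0 lower (10.3% and 7.98% of all loci). Against LL-MDM, LL-MG had 1 higher and 2 lower (12.0% and 8.31% of all loci). In LL-MDM against MDM 0 of these GTPase loci were higher and 1 lower (11.7% and 12.2% of all loci).

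Loci of other cells' markers differed in the same comparisons. The summed CPM of 8 conventional dendritic cell loci was 668.1 to 743.5 in MDM, 460.9 to 497.9 in LL-MDM, 441.4 to 497.0 in MG and 486.1 to 519.2 in LL-MG. Of these 8, 4 were lower in MG against MDM, 6 in LL-MDM against MDM, and 5 were positive in the interaction, with Ccr7 at 2.29 and Flt3 at 1.13. Over all loci 21.2% were lower in MG against MDM, 12.2% in LL-MDM against MDM, and 5.94% were positive in the interaction. Of the plasmacytoid dendritic cell list, cells known for making interferon, 6 of 8 loci could be tested, with sums of 750.6 to 776.3 CPM in MDM, 616.8 to 666.9 in LL-MDM, 553.8 to 590.8 in MG and 569.4 to 590.7 in LL-MG. The T and NK cell list gave 209.0 to 222.7 CPM in MDM, 168.7 to 194.4 in LL-MDM, 189.0 to 395.2 in MG and 148.5 to 162.6 in LL-MG. Ifng and Ncr1 of that list did not hold enough counts to be tested. The neutrophil list was lower in MG (149.2 to 161.5 CPM) than in MDM (203.1 to 211.5 CPM), and stood at 178.8 to 196.6 in LL-MDM and 136.2 to 148.1 in LL-MG. The monocyte list gave 335.0 to 357.1 CPM in MDM, 270.0 to 312.5 in LL-MDM, 244.4 to 341.0 in MG and 222.5 to 268.5 in LL-MG. Lists of brain cells were higher in LL-MG than in MG without overlap: 245.3 to 256.6 against 160.7 to 210.8 CPM for 6 astrocyte loci, 297.0 to 325.4 against 265.1 to 282.9 CPM for 6 oligodendrocyte lineage loci, and 66.81 to 69.9 against 47.07 to 54.86 CPM for 3 neuron loci. B cell and endothelial lists overlapped between MG and LL-MG, at 120.2 to 155.4 against 153.6 to 162.6 CPM and at 236.4 to 288.6 against 283.9 to 300.6 CPM. Accessibility at a marker is not its expression, and the part of these cells in the interferon differences was not tested.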

How the data were processed

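ATAC-seq was made from nuclei of sorted cells with an in-house Tn5 and 2 rounds of 9 PCR cycles, per the labels' protocols. The deposited table holds raw counts per region and library, which the authors made from reads on mm10 with tools that, per the submitters' processing notes, include BWA 0.7.17-r1188, SAMtools 1.10, Picard 2.12.0 and deepTools 3.5.1. For the peak caller, the counting and duplicate reads, the step is not given in the sources used here. Regions differ in width (median 178 bp) and their names list the groups in which they were found. Of the member regions, 95.0% name MDM, 34.0% MDM alone and 42.8% LL-MG, against 89.3%, 37.8% and 36.2% of all regions. A region found in some groups alone entered the table through those groups, so its difference from the others is not independent of how it was found.

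Counts of all regions within 5 kb of a RefSeq gene span (GRCm38.p6) were summed per gene, a region near several genes counting for each. Exon and intron positions were not used. Loci were tested with edgeR 4.0.16 (R 4.3.3; filterByExpr, TMM, robust quasi-likelihood, 1 mean per group, Benjamini-Hochberg over all loci), and regions in the same way. DESeq2 1.42.0, limma 3.58.1, other scalings, locus definitions, groupings and left-out libraries were alternatives. The locus fit of MG against MDM was tested on simulated data with the same spread at every locus and in every group. The region fits and the other comparisons were not tested in this way. Total counts of 1162969 to 18938222 per library set the precision, and intervals between replicates include counting error. Promoter sequences are RefSeq's.

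Members, gene lists and tests were chosen with earlier results of these data known. Values per library are given for up to 8 called loci per comparison by p and for Irf1, Irf7, Irf9 and Stat2, and up to 4 called regions per comparison are named by p, 1 per gene. Regions of the genes whose promoters are printed, and other regions of Irf1, Irf7, Rtp4 and Oas3, were named after their values were seen.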

Additional observations from a re-analysis of the deposited data

Results flagged for a closer look

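The difference between lipid-laden and other cells was tested between the 2 lineages as an interaction (LL-MG minus MG, less LL-MDM minus MDM), and the loci and named regions past an adjusted p of 0.05 (edgeR) are collected here. At the level of loci these were Bst2 at 0.95, Parp14 at 0.71, Rtp4 at 0.60, Trim25 at 0.55 and Ifi35 at 0.55, of which Bst2 alone held without any 1 library. Among single regions the inner region of Bst2, found in MDM alone, reached 2.51. The flank region of Trim25, found in every group but LL-MDM, reached 1.67. A region of Usp18 at chr6:121251266-121251510 gave 1.49, with mean levels of 7.07 CPM in MDM, 4.37 in LL-MDM, 2.72 in MG and 4.38 in LL-MG, although the Usp18 locus was called in no comparison. A region of Parp14 at chr16:35869139-35869416 gave 1.06 (17.9, 12.2, 10.3 and 14.8 CPM in the same order), and the inner region of Irf7 gave 0.82 (30.7, 16.2, 17.7 and 18.3 CPM). The flank regions of Rsad2 and Isg15 went the other way, at -1.40 and -1.36. At the Rsad2 region the mean was 7.84 CPM in MDM, 14.4 in LL-MDM, 7.05 in MG and 4.93 in LL-MG.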

How the results depend on the processing

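Counts of called member loci in MG against MDM (23) were 10 after thinning to the smallest total, 10 with regions of 1 gene only (27 loci tested), 0 by sample title (edgeR, 0 at an unadjusted p under 0.05) and 11 without LL-MDM 1, MG 2 and MG 3, an alternative chosen after seeing the data. In LL-MG against LL-MDM (5) they were 3 by DESeq2, 2 thinned, 3 with regions of 1 gene only and 0 by title (0 unadjusted). In LL-MDM against MDM (11) they were 6 thinned and 3 by title, and 2 with the mouse number of the titles as a replicate block. In LL-MG against MG (11) they were 7 by library totals alone, 6 by DESeq2, 3 thinned, 7 over gene spans only, 7 with a 20 kb flank, 5 with regions of 1 gene only, 1 by title, 0 with the replicate block (10 unadjusted) and 0 without the 3 libraries (2 unadjusted). For the interaction (5) they were 3 by library totals, 3 by DESeq2, 1 thinned, 3 with a 20 kb flank, 3 with regions of 1 gene only, 0 by title (0 unadjusted), 3 with the replicate block and 2 without the 3 libraries. The title numbers do not form pairs under the library names, as only the libraries of a single number span both lipid states. With the replicate block the lipid-load differences rest on those libraries. The cause of each loss was not tested, except that thinning leaves fewer counts and the stricter regions fewer loci. Counts under changed settings, here, above and below, stand without the share of all loci or regions called in that setting. A loss at the members is therefore not told apart from a loss everywhere.

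Called member regions in MG against MDM (45) were 19 thinned and 0 by title. In LL-MG against LL-MDM (16) they were 10 by DESeq2, 4 thinned and 0 by title. In LL-MDM against MDM (25) they were 15 by DESeq2, 4 thinned, 9 by title and 3 with the replicate block. In LL-MG against MG (7) they were 3 by DESeq2, 3 by limma-voom, 2 thinned, 0 with the replicate block (12 unadjusted) and 0 without the 3 libraries (4 unadjusted). For the interaction (7) they were 0 thinned (10 unadjusted) and 0 by title (1 unadjusted). All these zeros are from edgeR. With a spacer of 3 bases the ISRE-like core lay in 20% of the members' promoters. Without 1 library at a time, the loci called ran from 14 to 27, 1 to 7, 6 to 16, 2 to 16 and 1 to 12 in the 5 tests in the order above, and the regions from 37 to 56, 8 to 19, 7 to 34, 0 to 20 and 3 to 20.

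Values that changed sign over gene spans only were Isg15 in MG against MDM (-0.39) and LL-MDM against MDM (-0.51) and Irf1 in MG against MDM (0.029). Over regions named in all 4 groups these were Irf1 in MG against MDM (0.072) and Oas3 in LL-MG against MG (0.12), and with a 20 kb flank Irf9 (0.057) and Bst2 (0.067) in LL-MDM against MDM. By title, in MG against MDM, they were Ifih1 (0.21), Oas2 (0.20), Rsad2 (0.072), Xaf1 (0.033) and the named regions of Isg15 (-0.050), Bst2 (0.021) and Rtp4 (-0.57), and in LL-MG against LL-MDM Oas3 (0.18), Rsad2 (0.053) and the Irf1 region (0.21). By title they also were Rsad2 in LL-MDM against MDM (-0.29), and in LL-MG against MG Ifi35 (-0.26), Ifih1 (-0.17), Rsad2 (-0.31), Bst2 (-0.40), Trim25 (-0.59), Parp14 (-0.33) and the second Trim25 flank region (-0.53). In the interaction by title they were Trim25 (-0.029), Parp14 (-0.051) and the Isg15 region (0.19). Leaving aside the grouping by title, the calls that held in every setting in which they were tested were Irf7, Oas2, Oas3 and Trim25 in MG against MDM, Oas3 in LL-MG against LL-MDM and Ifitm3 in LL-MDM against MDM. Irf7 and Oas2 were tested in 24 settings and the others in 25. As all counts of Irf7 are shared, it could not be tested with regions of 1 gene only, and 90.2% of the Oas2 counts are shared.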
